A study of Mus with 6 samples.

Results

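The genes described here are 40 components of the route from Toll-like receptors to the NF-kB transcription factors. They were taken by symbol: co-receptors, adaptors, kinases, ubiquitin ligases, NF-kB subunits and their inhibitors. All 40 were among the 18887 genes of the deposited table, and all 40 were among the 14698 genes that passed the filter on low values (a normalized count of at least 10 in at least 2 libraries).

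In RiboTag profiling, ribosomes of a targeted cell type carry an epitope tag and are pulled down with the mRNA bound to them. The series holds 6 mouse precipitates from whole brain, all given microglia as their cell type: 2 control libraries (MG_IP, genotype Ctr) and 4 libraries labelled IRKO_IP with genotype KO. The study's title concerns insulin signalling in microglia, and IRKO is taken here to stand for insulin receptor knockout. The labels name neither the driver of the tag or of the knockout, nor a strain, age or sex, nor whether each library came from a separate animal, and p-values therefore reflect the spread among these libraries alone, which may be technical. The comparison asks how ribosome-bound transcripts of the pathway differ between the libraries labelled IRKO and the controls.

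Values are normalized counts, which are reads of a gene divided by a size factor of the library. Each library held between 13858978 and 19010680 recovered reads. The insulin receptor gene Insr stood at 565 and 532 in the control libraries and between 290.5 and 366 in IRKO. All 4 IRKO values lay below both controls, as they did for 34.8% of all genes tested. Cell content differed between the groups as well. A list of 26 microglia markers summed to 0.969% and 0.757% of all normalized counts in the controls and to 2.35% to 3.26% in IRKO, and 24 of its genes passed as higher, with a median log2 change of 1.63. A list of 20 astrocyte markers summed to 4.22% and 3.42% in the controls and to 0.234% to 0.322% in IRKO, and all 20 passed as lower, with a median of −3.97. Of 16 neuronal markers 13 passed as higher, with a median of 0.91. The sum of erythroid markers was 75535 and 161690 in the controls but 244 to 2140 in IRKO, and liver markers to 4361 and 78401 against 685 to 12051. None of the 26 microglia or 20 astrocyte markers was at 0 in all libraries. In both controls the astrocyte markers summed to more than the microglia markers. The part of cell content in the changes below was not tested. In precipitates from whole brain, the number of cells of a type, the RNA per cell and what the pull-down took up cannot be told apart.

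Toll-like receptors recognise microbial molecules and signals of damage, and microglia are the main cells of the brain that carry them. On binding, most receptors recruit MyD88, which assembles IRAK kinases and the ligase TRAF6, while TLR3 and internalised TLR4 use TRIF. Both branches converge on the kinase TAK1 and the IKK complex, which marks IkB proteins for destruction and so frees NF-kB dimers to enter the nucleus. NF-kB then drives inflammatory genes together with its own inhibitors, among them IkB-alpha and A20.

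As deposited, the pathway did not move as a block: 12 members rose in IRKO, 6 fell and 22 did not pass limma's test at an adjusted p of 0.05. The rises made up 30.0% of the 40 members, where 26.6% of all genes tested passed as higher, and the falls 15.0%, where 29.0% of all genes tested passed as lower. The median log2 change of the members was 0.18, against 0.02 over all genes tested, with a range from −2.42 for Traf1 to 2.03 for Cd14. Without control replicate 2 the median of the members was 0.058. With a replicate block, which compares only replicates 1 and 2 of each group, it was 0.28. Changes of at least 2-fold were seen in 12 members that passed, 8 rises and 4 falls, or 30.0% of members where the share of all genes was 25.5%. For 14 members every IRKO value lay above both control values (32.8% of all genes tested), and for 10 every IRKO value lay below (34.8% of all genes tested). The ratio of group means lay between 0.8 and 1.25 for 15 members, among them Rela, Irak1, Traf3, Birc2 and Map3k7.

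**Figure D1:**
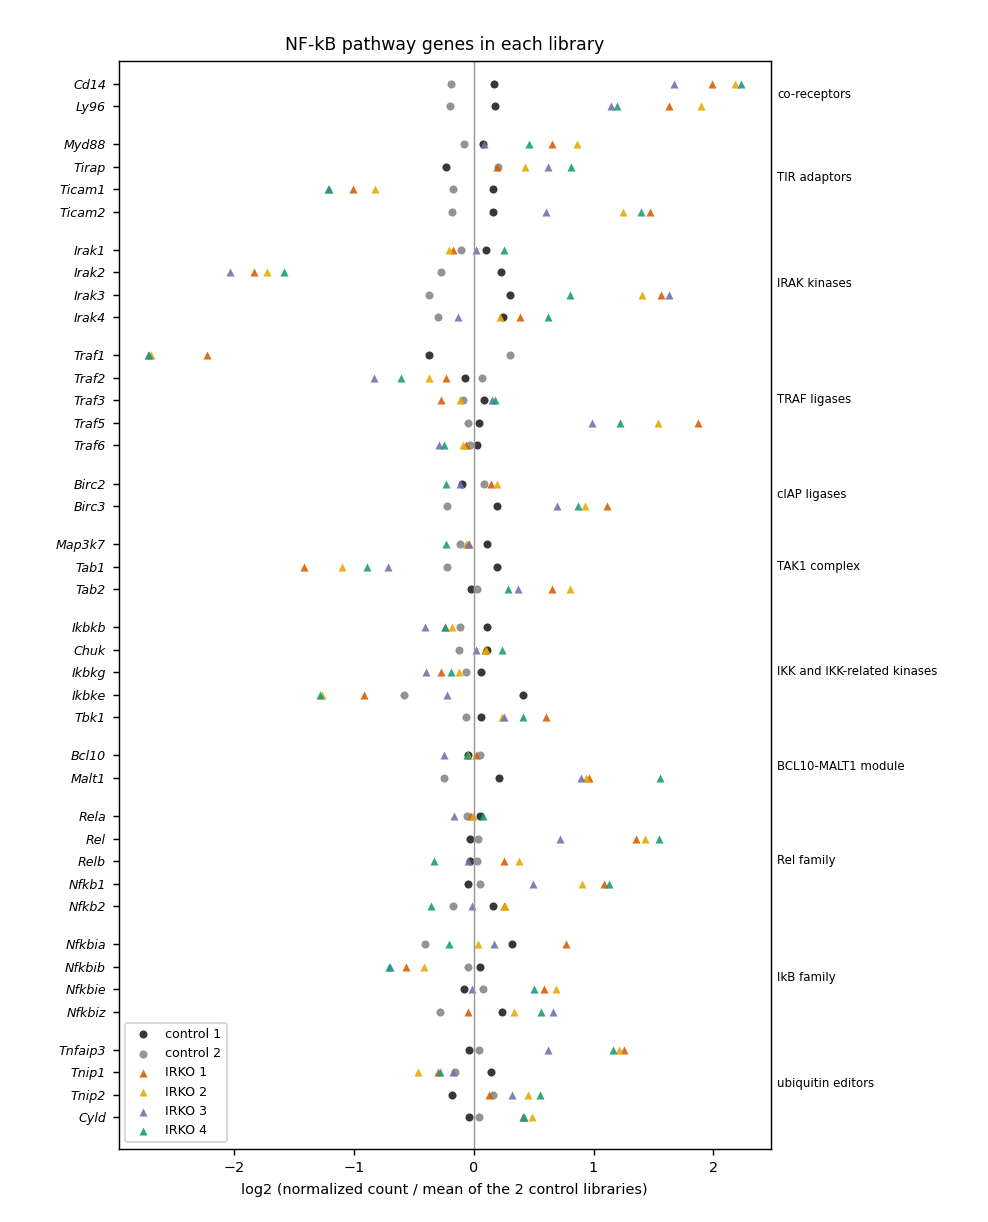
Normalized count of each of the 40 pathway genes in each of the 6 libraries, divided by the mean of the 2 control libraries, on a log2 axis; circles are control and triangles IRKO libraries, and genes are grouped by role. As deposited, all 4 IRKO libraries lie above both controls for Cd14 and Rel and below both for Irak2 and Traf1, whereas the groups overlap for Rela and Nfkbia; with libraries scaled to microglia markers, Rel stood at −0.21.

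The directions of most rises depended on how the libraries were scaled. With each library scaled to an equal mean of the 26 microglia markers, the median of all genes moved from 0.02 to −1.44, and 11 of the 12 rises then lay below 0. Only Cd14 still passed as higher in that scaling (0.57, limma adjusted p = 0.0224). Of the remaining 11, Nfkb1, Tab2 and Cyld passed as lower there and 8 did not pass. Of all 14698 genes tested, 54 passed as higher and 11791 as lower in that scaling. All 6 falls also passed as lower there, at −3.88 to −1.97. A downward shift of every gene makes that outcome likely in advance, so it is no check on the falls. This scaling moves the log2 change of every gene by the same amount, so distances between members were the same in both. A rise smaller than that amount falls below 0 by construction. With TMM scaling all 18 calls were kept, and with quantile normalization only that of Traf2 was lost.

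**Figure D2:**
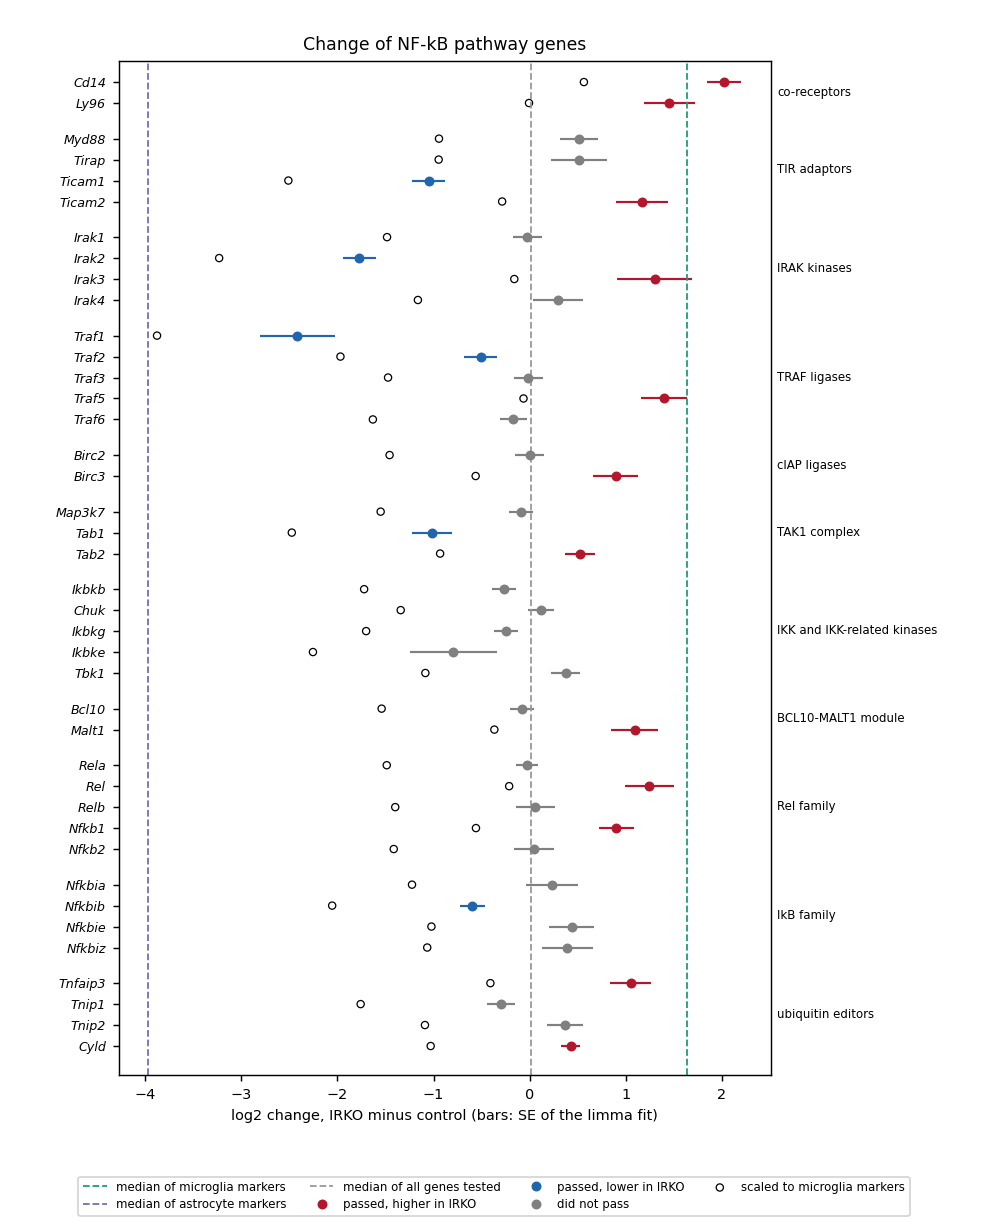
Log2 change of each pathway gene, IRKO minus control, with the standard error of the limma fit (n = 2 against 4); filled points are as deposited, open circles are scaled to the microglia markers, and dashed lines mark the medians of microglia markers (1.63), astrocyte markers (−3.97) and all genes tested (0.02). As deposited 12 genes passed as higher, but only Cd14 also did when scaled to microglia markers.

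The co-receptors stood at the top of the list. Cd14 encodes the protein that hands lipopolysaccharide to TLR4, and Ly96 encodes MD-2, the TLR4 subunit that binds it. Cd14 had 373 and 291 normalized counts in the controls and 1320.4, 1505, 1059 and 1561 in IRKO replicates 1 to 4. Every IRKO library was well above both controls, a 4.10-fold rise from 332 ± 58.0 (SD, n = 2) to 1361 ± 226 (SD, n = 4). Its log2 change of 2.03 ± 0.176 (SE; limma adjusted p = 1.97e-05) lay above 99.1% of all genes tested and near the top of the microglia marker list, whose highest change was 2.10. Ly96 had 42.7 and 32.9 in the controls and 117, 141, 83.6 and 86.7 in IRKO, again without overlap. It rose 2.83-fold (log2 1.45 ± 0.267, SE; limma adjusted p = 0.00157), and scaled to microglia markers its change was −0.01.

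Of the 4 adaptors, 1 fell and 1 rose as deposited, both of the TRIF branch. Ticam1, which encodes TRIF, fell in IRKO, Ticam2, which encodes the adaptor TRAM that links TLR4 to TRIF, rose as deposited, and Myd88 and Tirap did not pass. Ticam1 had 492 and 390.2 normalized counts in the controls and 219, 249, 189 and 191 in IRKO. All 4 IRKO libraries lay below both controls, a fall of 1.05 on the log2 scale (SE 0.168; limma adjusted p = 0.00073). Ticam2 went from 52.9 and 41.6 in the controls to 131, 112, 71.9 and 125 in IRKO, with IRKO replicate 3 the lowest of the 4 but still above both controls. Its log2 change was 1.17 ± 0.272 (SE; limma adjusted p = 0.00548), or −0.29 scaled to microglia markers. Myd88 had 379 and 338 in the controls and 564, 653, 379.9 and 494 in IRKO. IRKO replicate 3 lay level with control replicate 1, and the log2 change of 0.52 ± 0.200 (SE) just missed the threshold (limma adjusted p = 0.0518). Myd88 passed without IRKO replicate 3 (0.66, limma adjusted p = 0.00844), and on recovered reads with edgeR (adjusted p = 0.0427) and DESeq2 (adjusted p = 0.0268). Tirap, the sorting adaptor that brings MyD88 to the membrane, had values of 23.6 to 48.7 and overlapping groups (limma adjusted p = 0.162).

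Among the IRAK kinases, Irak2 fell and Irak3 rose as deposited, while the upstream kinases Irak1 and Irak4 did not pass. Irak2 is the kinase that sustains late signalling in the MyD88 complex, encoded at chr6:113638467-113695026 (GRCm38.p6). It had 1434 and 1009.8 normalized counts in the controls and 342, 369, 298 and 407 in IRKO. The groups were far apart, and the fall of 1.77 on the log2 scale (SE 0.175; limma adjusted p = 4.31e-05) amounted to 3.45-fold. Irak3 encodes IRAK-M, an inactive family member that restrains signalling. Few reads lay behind it: 11 and 8 in the controls, 18 to 32 in IRKO. In normalized counts it went from 12.4 and 7.75 to 29.7, 26.6, 31.1 and 17.5. All 4 IRKO libraries were above both controls, and the log2 change was 1.30 ± 0.390 (SE; limma adjusted p = 0.0186), or −0.16 scaled to microglia markers. Without control replicate 2 the call of Irak3 was lost (0.99, limma adjusted p = 0.122). Irak1 had 593 ± 59.0 (SD, n = 2) against 586 ± 88.7 (SD, n = 4), and Irak4 78.6 ± 20.8 against 96.8 ± 20.5, with overlapping groups for both.

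The TRAF family held the largest fall of all 40 members as deposited, a smaller fall and 1 rise. Traf1, an NF-kB-induced family member without a RING domain, is encoded at chr2:34941750-34961812. Its normalized counts were 39.4 and 62.9 in the controls and 10.9, 7.89, 7.77 and 7.79 in IRKO, the last 3 from 8 reads each. Traf1 fell 5.96-fold (log2 −2.42 ± 0.390, SE; limma adjusted p = 0.000763), and every IRKO library was below both controls. Traf5, which acts downstream of TNF family receptors such as CD40, moved the other way, from 85.5 and 80.4 to 304, 242, 164 and 194. Its log2 change was 1.40 ± 0.239 (SE; limma adjusted p = 0.00106) as deposited and −0.06 scaled to microglia markers. Traf2, which carries the signal of TNF receptors, had 486 and 536 in the controls and 436, 394, 287 and 335 in IRKO. It passed as lower (−0.51 ± 0.175, SE; limma adjusted p = 0.0332), but the call was lost without either control or without IRKO replicate 3 or 4, with adjusted p up to 0.161. Traf6, the ligase of the MyD88 branch, and Traf3, which favours the interferon branch, had group means within 1.25-fold of each other and did not pass. Of the cIAP ligases that work with TRAF2, Birc3 went from 43.9 and 32.9 to 83.2, 72.9, 62.2 and 70.1, and Birc2 from 549 and 624 to 500.6 to 672. Birc3 passed as higher (0.90 ± 0.235, SE; limma adjusted p = 0.00997), at −0.56 scaled to microglia markers, but did not pass when control replicate 2 was left out (0.70, limma adjusted p = 0.0792). Birc2 did not pass (0.003 ± 0.150, SE).

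In the TAK1 complex the kinase itself did not pass, and its subunits went apart. Map3k7, which encodes TAK1, averaged 592 ± 64.8 (SD, n = 2) across control libraries and 555 ± 33.3 (SD, n = 4) across IRKO libraries. Tab1, the subunit that activates TAK1 by binding it, had 849 and 635 in the controls and 277, 346, 451 and 400.3 in IRKO. Its values did not overlap between the groups, and it fell by 1.02 on the log2 scale (SE 0.203; limma adjusted p = 0.00254). Tab2, the subunit that binds ubiquitin chains, went from 967 and 1000.2 to 1548, 1719, 1273 and 1198. It passed as higher as deposited (0.53 ± 0.155, SE; limma adjusted p = 0.0169) and as lower scaled to microglia markers (−0.93), and its call was lost without either control library (limma adjusted p = 0.0859 and 0.0624).

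None of the 5 genes of the IKK group passed limma's test as deposited, and only Tbk1 had an unadjusted p under 0.05 (limma adjusted p = 0.0600). None passed with edgeR or DESeq2 on recovered reads either, but Tbk1 passed as higher with quantile normalization (0.45, limma adjusted p = 0.0292). Scaled to microglia markers all 5 passed as lower, as did 11791 of all 14698 genes tested. Ikbkb and Chuk encode the catalytic subunits of the IKK complex and Ikbkg its scaffold NEMO. Ikbkb had 689.5 and 591 normalized counts in the controls and 541, 566, 483 and 542 in IRKO, and Ikbkg 584 and 535 against 464, 515, 426 and 492. For both genes all IRKO values lay below both controls, but the differences were small (−0.26 ± 0.124 and −0.24 ± 0.125, log2, SE). Chuk had 344 ± 40.1 (SD, n = 2) against 373 ± 23.5 (SD, n = 4), with overlapping groups. Tbk1 and Ikbke encode the related kinases that activate interferon factors. Tbk1 had 234 and 214 in the controls and 340, 263, 267 and 298 in IRKO, all above both controls. Ikbke was read least, with 11 to 31 reads a library, and its groups overlapped. Ikbkg overlaps G6pdx and Fam3a in the RefSeq annotation, and the strand setting of the counting is not given in the sources used here, so its reads may be shared with theirs.

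Bcl10 and Malt1 encode the partners that connect CARD proteins of immune receptors to IKK. Malt1, a paracaspase, had 70.9 and 51.3 normalized counts in the controls and 119, 117, 114 and 179 in IRKO. It passed as higher (1.09 ± 0.244, log2, SE; limma adjusted p = 0.00453), with no overlap, and stood at −0.37 scaled to microglia markers. Bcl10 had 487 ± 23.6 (SD, n = 2) against 461 ± 35.5 (SD, n = 4) and did not pass.

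In the NF-kB family, Rel and Nfkb1 rose as deposited, and Rela, Relb and Nfkb2 did not pass. Rel, the subunit c-Rel of lymphoid and myeloid cells, is encoded at chr11:23736847-23770969. It had 47.2 and 49.4 normalized counts in the controls and 124, 130.1, 79.7 and 141 in IRKO. Rel rose 2.46-fold (log2 1.25 ± 0.253, SE; limma adjusted p = 0.00269), without overlap and with IRKO replicate 3 nearest to the controls. Nfkb1, the precursor of p50, went from 262 and 281 to 577, 508, 383 and 593, a log2 change of 0.90 ± 0.182 (SE; limma adjusted p = 0.00266). Scaled to microglia markers, Rel stood at −0.21 and Nfkb1 at −0.56. Rela, the main activating subunit p65, was among the steadiest members, with 1382 and 1286 in the controls and 1314.5, 1332, 1187 and 1410.3 in IRKO (log2 −0.03 ± 0.112, SE). Relb and Nfkb2, the subunits of the non-canonical pathway, had group means within 1.25-fold of each other, and Nfkb2 overlaps Psd in the annotation, so that its reads may be shared.

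Of the 4 IkB genes 1 passed, Nfkbib, as lower. Nfkbia encodes IkB-alpha, which NF-kB induces as feedback, and its values spread widely within both groups: 1057 and 640.0 normalized counts in the controls and 1449, 868, 954 and 734 in IRKO. The groups overlapped, and the log2 change of 0.24 ± 0.272 (SE) did not pass (limma adjusted p = 0.483). Nfkbib, which encodes IkB-beta, had 643 and 600.3 in the controls and 421, 466, 383 and 379.9 in IRKO. It passed as lower (−0.60 ± 0.130, log2, SE; limma adjusted p = 0.00398), with no overlap, and it overlaps Ccer2 in the annotation. Nfkbie, a further cytoplasmic inhibitor, had 64.1 and 71.6 against 102, 109, 67.0 and 96.4, with IRKO replicate 3 at the level of the controls. Nfkbiz, a nuclear member that acts as a cofactor of p50, had 65.2 and 45.5 against 53.5, 70.0, 87.4 and 81.8. Neither passed (limma adjusted p = 0.144 and 0.236), and Nfkbie passed without IRKO replicate 3 (0.59, limma adjusted p = 0.0365).

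Among the ubiquitin editors that end the signal, Tnfaip3 and Cyld rose as deposited, and the A20-binding partners Tnip1 and Tnip2 did not pass. Tnfaip3 encodes A20, at chr10:19000910-19015410. It had 73.1 and 77.5 normalized counts in the controls and 179, 174, 116 and 168.5 in IRKO. All IRKO libraries were above both controls, a 2.12-fold rise (log2 1.05 ± 0.214, SE; limma adjusted p = 0.00275) that stood at −0.41 scaled to microglia markers. Cyld, a deubiquitinase, went from 1119 and 1187 to 1533, 1614, 1530.2 and 1539. The IRKO values lay close together and above both controls, but the rise was only 1.35-fold (log2 0.43 ± 0.100, SE; limma adjusted p = 0.00547). Scaled to microglia markers Cyld passed as lower (−1.03), and leaving out control replicate 1 ended the call (0.39, limma adjusted p = 0.0538).

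Members could be set against each other within a library, where the scaling cancels. For 21 pairs the log2 ratio of normalized counts was compared between the groups. Most pairs joined members of the same role, while the IkB genes and Tnfaip3 were set against Rela. The pairs were chosen with earlier results of these data known. In 16 of the pairs the groups did not overlap, 7 with a higher and 9 with a lower ratio in IRKO. Single genes did so in 32.8% of cases upward and 34.8% downward over all genes tested, which is a different measure. No share over pairs of other genes was computed, and several pairs hold the same gene, such as Rela. An exact permutation test (two-sided) over 2 against 4 libraries cannot go below p = 0.133, which each of these 16 pairs reached, with an adjusted p of 0.175 over the 21 pairs, so none could pass a threshold of 0.05.

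The widest shift of the 21 pairs was within the TRIF branch. Ticam2 over Ticam1 was 0.108 and 0.107 in the controls and 0.597, 0.451, 0.380 and 0.653 in IRKO, a log2 difference of 2.23. Ticam1 over Myd88 was 1.30 and 1.16 in the controls and 0.388, 0.382, 0.499 and 0.387 in IRKO, a log2 difference of −1.57. Counts were not corrected for gene length, so only the shift of a ratio between libraries can be read, not its level. Irak2 over Irak4 was 15.4 and 15.8 in the controls and 3.32 to 4.15 in IRKO (log2 difference −2.07), and Irak3 over Irak4 was 0.133 and 0.121 against 0.145 to 0.432 (log2 difference 1.00). Tab1 over Tab2 went from 0.878 and 0.635 to between 0.179 and 0.354 (log2 difference −1.54).

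Ratios to Rela moved in both directions. Rel over Rela was 0.0342 and 0.0384 in the controls and 0.0942, 0.0977, 0.0671 and 0.100 in IRKO, a log2 difference of 1.27. Tnfaip3 over Rela was 0.0529 and 0.0602 in the controls and 0.136, 0.131, 0.0974 and 0.120 in IRKO, a log2 difference of 1.08. Nfkbib over Rela moved the other way (0.465 and 0.467 against 0.269 to 0.350, log2 difference −0.57). Nfkbie over Rela was 0.0464 and 0.0557 in the controls and 0.0565 to 0.0822 in IRKO, higher without overlap (log2 difference 0.47). Nfkbia over Rela overlapped between the groups, with 0.765 and 0.498 in the controls and 0.521 to 1.10 in IRKO. Relb over Rela and Nfkbiz over Rela overlapped too. Even within the IKK complex, where no gene passed singly, Ikbkb over Chuk was 1.85 and 1.87 in the controls and 1.34 to 1.53 in IRKO (log2 difference −0.38).

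**Figure D3:**
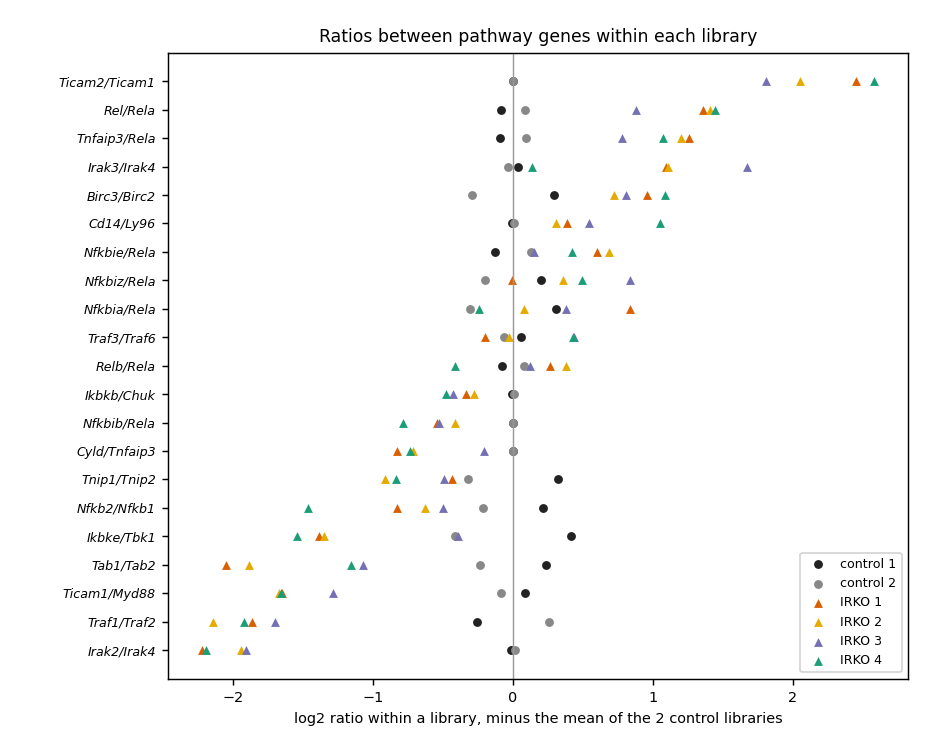
Log2 ratio of normalized counts of 21 gene pairs within each library, minus the mean of the 2 control libraries, ordered by the difference between the groups; circles are control and triangles IRKO libraries. The ratio of Ticam2 to Ticam1 is higher in IRKO by 2.23 and that of Irak2 to Irak4 lower by 2.07, and the groups do not overlap in 16 of the 21 pairs.

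The IRKO libraries were not alike in these genes. IRKO replicate 3 held the lowest IRKO value of 23 of the 40 members (57.5%), where it did so for 25.0% of all genes tested. Among the 12 members that rose, 10 had their lowest IRKO value there, and among the 6 that fell, 4 did. The same shares over all genes that passed were not computed. Traf1 is among these falls, and its IRKO replicates 2, 3 and 4 had 8 reads each. IRKO replicate 3 also had the lowest sum of microglia markers, 326580 normalized counts against 440550 to 447460 in the other IRKO libraries, and their part in the lower member values was not tested. Without this library all 12 rises still passed, Myd88 and Nfkbie passed as higher in addition, and 5 falls passed, as Traf2 no longer did. Between the controls, 27 members were higher in replicate 1 and 13 in replicate 2, where 52.7% of all genes were higher in replicate 1. The microglia markers summed to 184070 in control replicate 1 and 139340 in replicate 2. Over the IRKO libraries the median SD of log2 values was 0.248 for the members and 0.191 for all genes tested.

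**Figure D4:**
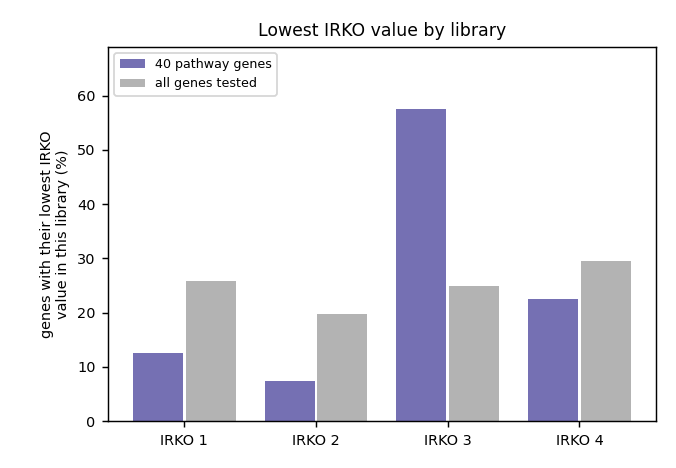
Share of genes whose lowest IRKO value fell in each of the 4 IRKO libraries, for the 40 pathway genes and for all 14698 genes tested; bars start at 0. IRKO 3 held the lowest value of 57.5% of the pathway genes and 25.0% of all genes.

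Genes on either side of these components were counted from lists of receptors, further signalling components and NF-kB targets. Of 23 further receptors and receptor partners 18 passed the filter, and of these 13 rose as deposited, 2 fell and 3 did not pass, with a median log2 change of 1.40 (−0.06 scaled to microglia markers). These were 72.2% higher and 11.1% lower, where 26.6% and 29.0% of all genes tested passed. Unc93b1, the chaperone of endosomal Toll-like receptors, went from 1736 and 1423 normalized counts to between 4179 and 5548 (log2 1.71 ± 0.152, SE; limma adjusted p = 2.28e-05). Tlr7, a receptor of single-stranded RNA, and Ly86, the partner of CD180, rose by 2.03 ± 0.215 and 1.57 ± 0.168 (log2, SE). Unlike these, Tlr3, the receptor of double-stranded RNA that signals through TRIF alone, fell from 842 and 874 to between 295 and 340 (log2 −1.43 ± 0.120, SE; limma adjusted p = 1.51e-05). Ltbr, the lymphotoxin receptor, was the other fall (−0.85 ± 0.155, log2, SE).

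Among 34 tested of 35 further signalling components, 10 rose as deposited, 7 fell and 17 did not pass, with a median of 0.03 (−1.43 scaled to microglia markers). The rises made up 29.4% and the falls 20.6%, against 26.6% and 29.0% of all genes tested, and only 4 passed as lower with quantile normalization or without control replicate 1. Irf5, an interferon factor activated through MyD88, rose from 321 and 264 normalized counts to between 750.0 and 1087 (log2 1.74 ± 0.171, SE). Map3k3 and Card9, a kinase and an adaptor upstream of IKK, rose by 1.22 ± 0.160 and 1.54 ± 0.225 (log2, SE), and scaled to microglia markers Map3k3 stood at −0.24. In contrast Irf3, the interferon factor at the end of the TRIF branch, fell from 1125 and 993 to between 485 and 564 (log2 −0.997 ± 0.118, SE; limma adjusted p = 0.000128). Tank, a scaffold of TBK1, fell by 1.03 (SE 0.220) and Peli2, a ligase that modifies IRAK kinases, by 0.88 (SE 0.150) on the log2 scale.

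Of 34 NF-kB target genes 26 passed the filter, and of these 13 rose as deposited, 3 fell and 10 did not pass, with a median of 0.78 (−0.68 scaled to microglia markers). That is 50% higher and 11.5% lower, beside 26.6% and 29.0% over all genes tested. Cd83, an activation marker, went from 201 and 198 normalized counts to 512, 552, 525 and 523 (log2 1.40 ± 0.115, SE; limma adjusted p = 1.42e-05), or −0.06 scaled to microglia markers. Bcl2a1a, a survival gene that may share reads with its near-identical paralogs, and Plau, the urokinase gene, rose by 2.18 ± 0.253 and 1.55 ± 0.185 (log2, SE). The paralogs Bcl2a1b and Bcl2a1d are also among the 13 rises (log2 1.46 and 3.10), so that count may hold the same reads more than once. The 3 falls were Vcam1, an adhesion molecule (−2.72 ± 0.228, log2, SE), Sod2, mitochondrial superoxide dismutase (−1.62 ± 0.136), and Csf1, a growth factor of microglia (−1.09 ± 0.178). The target genes Tnf, Il6, Il12b, Il1rn, Cxcl1, Cxcl2, Nos2 and Saa3 did not pass the filter, and none of these 8 exceeded 20.4 normalized counts in any library. Several inflammatory targets were tested. Of these, Icam1, Ptgs2, Ccl2 and Ccl4 passed as higher as deposited (log2 1.04 to 1.33), at −0.42 to −0.13 scaled to microglia markers. Ccl4 only just passed (limma adjusted p = 0.0493), and its groups overlapped. On recovered reads it did not pass with edgeR (adjusted p = 0.0677) but did with DESeq2 (adjusted p = 0.0342). Ccl2 had 9 and 11 reads in the controls, and passed with edgeR (adjusted p = 0.0432) but not with DESeq2 (adjusted p = 0.0610). Il1a, Il1b, Ccl3, Ccl5 and Cxcl10 did not pass limma's test as deposited.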

How the data were processed

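The authors deposited 1 table of normalized counts for 6 mouse libraries. Its values are a signal per gene, whole reads divided by 1 size factor per library, as the deposited values themselves show (100% whole within 0.05 reads). Bowtie2 and GRCm38.p6 are named in the submitters' processing notes. How reads were counted, with which annotation and strand setting, and how size factors were made is not given in the sources used here. In IRKO replicate 1 a read was worth 0.991, too near 1 to tell from rounding, so count tests were also run without it.

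Genes with at least 10 in at least 2 libraries were tested. A linear model was fitted to log2(value + 1) of all 6 libraries with limma 3.58.1 in R 4.3.3, with a variance trend. The added 1 makes fitted log2 changes of low genes smaller. Two-sided p-values were adjusted by the Benjamini-Hochberg method over the 14698 genes, at a threshold of 0.05. Values given as N-fold are ratios of group means, without it. The fit was tested on simulated data. Settings varied in turn were the pseudocount (0.5 or 5), the filter (none, or at 50), TMM scaling, quantile normalization, scaling to microglia markers, no trend, a replicate block, leaving out each library, and count tests of the recovered reads with DESeq2 1.42.0 and with edgeR 4.0.16. The count tests without IRKO replicate 1 were added after seeing the data.

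Members, lists and pairs were chosen with earlier results of these data known. All members were named, and of each further list up to 3 genes with the smallest p in each direction. The 8 target genes under the filter, and the tested inflammatory targets named beside them, were named after their values were seen. Coordinates are those of RefSeq on GRCm38.p6, which held 18542 of the symbols. A planned search of promoters and IkB proteins was not run. No libraries were counted as duplicates, since chi-square per degree of freedom was 17.2 to 38.2 for every pair within a group. Further marker lists, given as the median log2 change and the genes passing, were oligodendrocyte (0.86, 7 higher and 1 lower of 12), oligodendrocyte precursor (1.15, 3 higher of 6), endothelial and mural (0.76, 7 higher and 1 lower of 13), border macrophage (1.09, 2 higher of 5 tested), monocyte and neutrophil (−0.04, 2 higher and 2 lower of 7 tested), lymphocyte (0.14, none of 2 tested), erythroid (−7.01, 6 lower of 6 tested) and liver (−6.76, 8 lower of 9 tested).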

Additional observations from a re-analysis of the deposited data

Results flagged for a closer look

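In 5 of the 40 pathway genes 1 of the 4 IRKO libraries lay far from the other 3, with a gap to the nearest of them, as a share of the group's range, above Dixon's 95% critical value. Chance alone marks about 1 in 20 groups this way. IRKO replicate 1 stood high in Traf1 (10.896 normalized counts, gap 0.958 of the range), a difference of a few reads. IRKO replicate 4 stood low in Map3k7 (505.49, gap 0.855) and high in Malt1 (179.21, gap 0.902). IRKO replicate 3 stood low in Tnfaip3 (115.61, gap 0.858), and IRKO replicate 2 stood high in Cyld (1613.6, gap 0.893), a gene with very close values in the other 3.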

How the results depend on the processing

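Of the 19 alternatives, scaling to the microglia markers changed most calls. Under it 1 of the 40 members passed as higher and 31 as lower, with a median of −1.28. Of all 14698 genes tested, 54 passed as higher and 11791 as lower in this scaling, with a median of −1.44. Receptors then gave 1 higher and 5 lower of 18 tested, signalling components 0 higher and 26 lower of 34, and target genes 1 higher and 10 lower of 26. In this scaling 23 members with a positive change as deposited fell below 0: Ly96 −0.0057, Myd88 −0.94, Tirap −0.95, Ticam2 −0.29, Irak3 −0.16, Irak4 −1.16, Traf5 −0.063, Birc2 −1.46, Birc3 −0.56, Tab2 −0.93, Chuk −1.34, Tbk1 −1.08, Malt1 −0.37, Rel −0.21, Relb −1.40, Nfkb1 −0.56, Nfkb2 −1.41, Nfkbia −1.22, Nfkbie −1.02, Nfkbiz −1.07, Tnfaip3 −0.41, Tnip2 −1.09 and Cyld −1.03. Under the other 18 alternatives 9 to 12 of the rises and 5 or 6 of the falls passed, with the filter at 50 leaving 36 members to fit, and no call changed direction. Besides the losses given with each gene, Irak3 was lost with DESeq2 without IRKO replicate 1 (adjusted p = 0.0784). Traf2 was lost with quantile normalization and with no variance trend.

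Quantile normalization left 4 signalling components lower, and Tbk1 and Myd88 passed as higher. It turned the sign of uncalled Irak1 (0.15), Traf3 (0.16), Map3k7 (0.076), Bcl10 (0.058) and Rela (0.22). Traf3 also turned with TMM (0.0021), edgeR (0.0071) and DESeq2 (0.0030). Without IRKO replicate 1, edgeR gave Irak1 0.065, Traf3 0.11, Birc2 −0.012 and Rela 0.0028, and DESeq2 gave Irak1 0.048, Traf3 0.090 and Birc2 −0.026. The cause was not tested.

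Leaving out each library in turn moved the median of the members between 0.058 and 0.22, the number passing as higher between 9 and 14 and as lower between 5 and 6. Signalling components passing as lower ranged from 4 to 7, with 4 without control replicate 1. Uncalled genes changed sign within these ranges: Irak1 −0.13 to 0.078, Traf3 −0.10 to 0.074, Birc2 −0.089 to 0.094, Map3k7 −0.20 to 0.021, Chuk −0.00029 to 0.24, Rela −0.079 to 0.025, Relb −0.043 to 0.19, Nfkb2 −0.12 to 0.21 and Nfkbia −0.13 to 0.60. With 1 control left, it is assumed to vary like the IRKO group.

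Replicate numbers are taken here only to name the libraries. Deviations of same-numbered libraries correlated at −0.0824 and 0.079. With 2 controls the deviations of the controls mirror each other, so these values cannot tell whether same-numbered libraries were paired. With a replicate block the median was 0.28, Traf2 was lost (−0.30, limma adjusted p = 0.160), and Myd88 and Nfkbia passed. Replicates 3 and 4 hold only IRKO libraries, so with the block the change rests on replicates 1 and 2 of each group alone. The other 17 calls were kept with the block. With 2 controls the precision is limited, and genes such as Traf1 and Irak3 rest on 8 to 65 reads a library. The planned promoter and protein searches were not run.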
